A study of Mus musculus with 42 samples.

Results

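The cytochrome P450 (CYP) families 2, 3 and 4 are the largest group of haem monooxygenases in the mouse, and their transcripts were followed here in lung, liver and forestomach of mice given the polycyclic aromatic hydrocarbon BkF, benzo(k)fluoranthene, by gavage. Members were all probes whose gene symbol reads Cyp2, Cyp3 or Cyp4 followed by a subfamily letter and a number. The rule took 88 of the 55681 probes on the array, which stand for 68 of the 20018 genes named on it, 16 of them with more than 1 probe. A further 5 genes with such symbols had no probe matched by accession, among them Cyp2a5, Cyp2c40 and Cyp2j7. A probe was kept in a tissue when its sample signal was well above background on at least 3 arrays of that tissue, which left 40 probes (34 genes) in lung, 77 probes (60 genes) in liver and 42 probes (37 genes) in forestomach. The genes Cyp2b23, Cyp2w1, Cyp4f37, Cyp4f40 and Cyp4x1 were kept in no tissue.

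The arrays came from male Muta™Mouse, a transgenic strain built for scoring lacZ mutations, aged about 11 weeks. The mice received olive oil alone (D0) or BkF in olive oil at 25 (D1), 50 (D2) or 100 (D3) mg/kg-bw/day by oral gavage for 28 days, and tissues were taken 72 h after the final dose. Lung was measured in 4, 3, 4 and 4 mice from D0 to D3, liver in 4, 2, 3 and 4 and forestomach in 4, 3, 4 and 3, which made 42 arrays of 15 mice. On each array the tissue RNA was labelled with Cy5 and compared with a common Cy3-labelled reference made from 11 mouse cell lines, without a dye swap. A level below is log2 of sample over reference at 1 probe, a change is a difference of such levels, and a call is an adjusted p of 0.05 or less in limma with a change of 1.5-fold or more.

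The tissues were checked against marker genes. The 5 hepatocyte markers averaged 7.43 to 8.11 on the liver arrays and 0.12 to 0.72 on the lung arrays. On the forestomach arrays they averaged 0.26 to 4.34, with Apoa1 and Ttr up to 5.58 and 5.82. The 4 alveolar markers averaged 5.70 to 6.54 in lung, and the 5 squamous epithelium markers 2.51 to 4.18 in forestomach. Several arrays stood apart. The 8 markers of the glandular stomach averaged 4.87 to 6.05 on 9 of 14 forestomach arrays and 0.60 to 1.90 on the other 5. The tissue differences were therefore also fitted without those 9 arrays. Only some of the values that changed are given beside them. On 1 lung array (D2, mouse 12) skeletal muscle markers averaged 4.76 and squamous markers 2.94, and on another (D1, mouse 7) glandular stomach markers averaged 3.95. Skeletal muscle markers averaged 3.59 on 1 liver array (D3, mouse 17). Lung D3 mouse 20 held the highest lung value of 6 of the 34 genes and the lowest of 11, beside 15.4% and 15.6% of all probes. The liver of mouse 12 (D2) differed from every other liver in the CYP genes themselves, as described below. Liver arrays also lay on slides of their own and were read with another version of the scanner software, so tissue and slide cannot be told apart. Since whole tissue was used, fewer cells of a type and less RNA per cell cannot be told apart either.

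Most CYPs sit in the endoplasmic reticulum and draw electrons from Por, the P450 reductase, to insert oxygen into drugs, steroids, fatty acids and environmental chemicals. Families 2 and 3 hold most of the drug-metabolising enzymes of the liver, controlled by the nuclear receptors CAR and PXR, while family 4 hydroxylates fatty acids and its Cyp4a genes are controlled by PPARα. Hydrocarbons such as BkF act mainly through another sensor, the aryl hydrocarbon receptor (AhR), whose classical target is the family 1 gene Cyp1a1.

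The AhR recognises the core letters GCGTG, and 4 promoters are shown because the genes carry the tissue patterns below: a pair whose upstream window holds the core and a pair whose window does not. Each is the 250 bases before the start site in RefSeq (GRCm38.p6), written 5′ to 3′ on the gene's strand in lower case, with capitals marking GCGTG or its complement CACGC. They are Cyp2b10 at chr7:25897408-25897657 (plus strand), Cyp4f39 at chr17:32452473-32452722 (plus), Cyp2s1 at chr7:25816526-25816775 (minus) and Cyp2c29 at chr19:39286835-39287084 (plus).
Cyp2b10: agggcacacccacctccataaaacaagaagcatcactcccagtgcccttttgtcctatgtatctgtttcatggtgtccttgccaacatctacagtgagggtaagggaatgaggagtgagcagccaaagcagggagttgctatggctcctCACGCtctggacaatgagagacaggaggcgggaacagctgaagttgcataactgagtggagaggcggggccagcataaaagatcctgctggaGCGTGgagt
Cyp4f39: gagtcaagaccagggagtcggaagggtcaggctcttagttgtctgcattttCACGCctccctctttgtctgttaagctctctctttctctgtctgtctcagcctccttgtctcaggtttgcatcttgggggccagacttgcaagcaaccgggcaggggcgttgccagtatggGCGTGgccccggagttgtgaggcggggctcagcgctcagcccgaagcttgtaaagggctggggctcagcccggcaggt
Cyp2s1: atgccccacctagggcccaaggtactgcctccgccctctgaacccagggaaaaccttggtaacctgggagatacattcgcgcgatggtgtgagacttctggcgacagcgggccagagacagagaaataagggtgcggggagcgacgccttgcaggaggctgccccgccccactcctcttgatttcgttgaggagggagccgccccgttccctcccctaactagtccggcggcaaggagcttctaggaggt
Cyp2c29: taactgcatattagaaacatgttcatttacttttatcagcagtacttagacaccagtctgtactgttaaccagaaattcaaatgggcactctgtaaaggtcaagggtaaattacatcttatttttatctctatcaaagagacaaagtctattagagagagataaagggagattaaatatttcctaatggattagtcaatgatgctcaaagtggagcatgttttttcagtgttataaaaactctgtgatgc
The windows of Cyp2b10 and Cyp4f39 held 2 matches each, and those of Cyp2s1 and Cyp2c29 held 0. Over the 55 members with a promoter in the table, 9 (16.4%) had the core on either strand in these 250 bases, against 9250 of 32851 promoters of all genes (28.2%). The 9 were Cyp2b10, Cyp2c68, Cyp2j13, Cyp2j9, Cyp2w1, Cyp4f14, Cyp4f16, Cyp4f39 and Cyp4v3. A match is a description of letters, not a binding site, and bases outside these 250 were not searched. The windows of Cyp2b10 and Cyp4f39 differed in base composition by little (52.8% and 59.6% G or C), while that of Cyp2c29 was the poorest of the 4 (32.8%).

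The first comparison was between tissues of the 4 vehicle-treated mice and asks where these enzymes were expressed without exposure. Most members were highest in liver. Of the 61 genes compared between lung and liver, 46 were lower in lung and 5 were higher. By probe, 67 of 78 members were called against 43.5% of all 34597 probes. A probe entered this comparison if it was kept in either tissue, so a gene kept through liver alone was likely to be lower in lung, and the counts are a description. Over the 39 member probes kept in both tissues, 31 were lower in lung and 5 higher, beside 22.7% lower and 27.1% higher among all 24420 such probes. Forestomach showed similar counts: of 63 genes, 46 were lower than in liver and 4 higher. By probe 66 of 80 members were called against 41.5% of all probes. Over the 39 member probes kept in both of those tissues, 31 were lower in forestomach and 2 higher, beside 20.6% lower and 24.3% higher among all 21876 such probes. By subfamily, 9 of 9 Cyp2d genes, 11 of 12 Cyp2c genes, 6 of 7 Cyp3a genes and 4 of 5 Cyp4a genes were lower in lung than in liver. These counts include genes kept through liver alone, since 5 Cyp2d, 5 Cyp2c, 2 Cyp3a and 2 Cyp4a genes were kept in lung. In the Cyp4f subfamily 4 of 7 were lower and 1 was higher, and in the Cyp2b subfamily 0 of 3 were lower and 1 was higher.

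Several Cyp2c, Cyp3a and Cyp2a genes were near the top of the scale in liver and at or near 0 in lung. Cyp2c54, an arachidonic acid epoxygenase, had liver levels of 9.09, 9.57, 9.60 and 9.58 in mice 1 to 4 and lung levels of -0.25 to 0.10. Its lung signal was not well above background on any of the 4 arrays, and liver exceeded lung at least 802-fold. Such bounds were set on the sample channel alone, against the faintest signal still well above background, so they can exceed the ratio. Cyp2c29, a CAR-controlled epoxygenase, stood at 8.82 to 9.15 in liver and -0.05 to 0.02 in lung, at least 921-fold higher in liver. Cyp3a25, a liver form of family 3, was at 9.05, 9.36, 8.64 and 9.22 in liver and -0.05 to 0.41 in lung, at least 381-fold higher. Among the bile acid enzymes, Cyp2c70, which makes the muricholic acids of mice, was lower in lung by 8.42 on the log2 scale and Cyp2a12, a bile acid 7α-hydroxylase, was at least 885-fold lower. No lung array overlapped a liver array for any of these 5 genes. Cyp2c54, Cyp2c29, Cyp3a25 and Cyp2a12 were kept in liver and not in lung, so their differences are a description.

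Some of these genes were not well above background on any vehicle forestomach array. Cyp2c54 was at least 712-fold, Cyp3a25 at least 346-fold and Cyp3a11, the main drug-metabolising P450 of mouse liver, at least 232-fold lower there than in liver. Cyp2c54, Cyp3a25 and Cyp3a11 were kept in liver and not in forestomach, so these differences are a description as well. The Cyp2c29 level in forestomach was 0.01, 1.68, 1.56 and -0.14 in mice 1 to 4. The pair at 1.56 and 1.68 were the vehicle arrays high in glandular stomach markers.

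Several of the well-known members were also higher in liver, by smaller amounts. Cyp2r1, the vitamin D 25-hydroxylase, had liver levels of 4.69, 4.43, 4.68 and 4.60 against -0.11 to 0.33 in lung, a 22.9-fold difference. For Cyp2r1 the log2 difference was -4.52 at this probe, -3.56 at its other probe and -3.65 on the sample channel alone. Cyp4v3, the mouse counterpart of the gene mutated in Bietti crystalline dystrophy, stood at 6.50 to 6.63 in liver, 3.43 to 3.58 in lung and 0.35 to 1.26 in forestomach, with no overlap among the tissues. Cyp4f13, a family 4 hydroxylase, was 8.63-fold lower in lung than in liver. At its brighter liver probe Cyp3a13 was 12.8-fold lower in lung than in liver and 1.81-fold lower in forestomach (levels 3.73, 3.34, 3.23 and 2.05 against 3.76 to 4.10 in liver). Without forestomach mouse 4 that forestomach difference was -0.51 and not called. The other Cyp3a13 probe gave -1.97 for lung and -1.69 for forestomach on the log2 scale, both called. Cyp2u1, a fatty acid hydroxylase, reached 1.52 to 1.93 in liver and was, kept through liver alone, at least 3.05-fold higher there than in lung. Cyp4a10, an ω-hydroxylase under PPARα, was lower in lung by 5.76 and Cyp2j6, an epoxygenase, by 2.65 on the log2 scale. The other Cyp4a10 probes gave -4.65 and -4.03 and the other Cyp2j6 probe -1.35, all called. The Cyp4a10 probe at -4.03 was not well above background on any lung array, so its difference is a description.

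A set of 5 genes ran the other way and were higher in lung than in liver. Cyp4b1, a lung P450 known for activating inhaled furans, had lung levels of 8.30, 8.03, 8.28 and 7.81 against 2.60 to 3.02 in liver and 2.34 to 3.14 in forestomach. That is 39.4-fold above liver (difference 5.30, 95% interval 4.51 to 6.09) and 38.9-fold above forestomach. With the scanner's own log ratios the same differences were 1.97 and 2.47, still called. Cyp2s1, an extrahepatic P450, was at 3.84, 3.14, 3.09 and 3.09 in lung, at 4.70 to 4.94 in forestomach and at -2.80 to -2.37 in liver. Lung exceeded liver 58.1-fold (difference 5.86, 95% interval 5.21 to 6.51) and forestomach exceeded liver 167-fold (7.38, 6.73 to 8.04). Forestomach also exceeded lung 2.87-fold, with the ranges of the 3 tissues apart. Cyp2b9 was at 2.30 to 3.27 in lung and not well above background on any vehicle liver or forestomach array, at least 4.60-fold and 4.33-fold below lung. It was not kept in forestomach, so its difference from forestomach is a description. Cyp4f18, which inactivates leukotriene B4 in neutrophils, was at 2.07 to 2.77 in lung and -0.20 to 0.25 in liver (difference 2.47). Cyp2j9 was higher by 1.04 (2.05-fold, adjusted p = 0.016 in limma). Its lung range of 2.94 to 3.92 touched the highest liver value of 2.94, and the call was lost without lung mouse 3 (0.87), with the scanner's log ratios (0.53) and on the sample channel alone (0.46).

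Cyp2f2 and Cyp2b10, both known from the airway club cell, were not lung-specific on the ratio. Cyp2f2, which activates naphthalene, was at 6.67, 6.40, 6.62 and 6.51 in lung, 7.11 to 7.37 in liver and 5.27 to 5.66 in forestomach. The lung values lay below every liver value, by 0.66 on the log2 scale (adjusted p = 0.0020 in limma), and above every forestomach value by 1.09. Cyp2b10, the classical CAR target, was tight in lung (4.38, 4.16, 4.59 and 4.56) and scattered in liver (4.88, 3.14, 2.07 and 5.08) and forestomach (-0.04, 3.64, 3.36 and 0.38). Its lung to liver difference of 0.63 was not called (95% interval -0.82 to 2.08). Against forestomach lung was higher by 2.59, and by 4.25 once the forestomach arrays high in glandular stomach markers were left out. Cyp2e1, the ethanol-inducible form, was at 9.08, 9.28, 7.90 and 9.38 in liver, 1.70 to 3.28 in lung and 0.66 to 2.72 in forestomach. Cyp2a4, a steroid 15α-hydroxylase, was lower in lung than in liver by 3.19 and higher in lung than in forestomach by 3.74 on the log2 scale. Probes of near-identical paralogs such as those of the Cyp2a, Cyp2c and Cyp4a subfamilies may share signal, and probe sequences were not used here.

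A ratio compares each tissue with the reference signal at the same spot, and that signal was not the same on all arrays. At 16 of the 61 genes the reference channel was more than 1 log2 unit brighter on vehicle liver than on vehicle lung arrays, beside 1.00% of all probes. At Cyp2d10 the reference stood at 9.70 on liver and 5.73 on lung arrays, and the ratio difference of -7.30 became -11.27 on the sample channel alone. Cyp2d10 was not well above background on any lung array and was not kept there, so its differences are a description. At Cyp2e1 the reference stood at 9.37 ± 0.85 (SD, n = 4) on liver and 5.90 on lung arrays, and -6.43 became -9.90. Cyp2b10 was the 1 gene with the reverse (3.78% of all probes), with a reference of 10.33 on lung and 6.04 on liver arrays. On the sample channel alone Cyp2b10 was higher in lung than in liver by 4.92 (adjusted p = 1.9e-05 in limma), against 0.63 by ratio. The Cyp2f2 reference was 11.04 on lung, 10.08 on liver and 8.65 on forestomach arrays. The lung to liver difference of Cyp2f2 turned to 0.30 on the sample channel (adjusted p = 0.35 in limma), and its lung to forestomach difference grew from 1.09 to 3.48. At Cyp4b1 the reference was alike on lung and liver arrays (5.74 and 5.57), as it was at Cyp2s1 (9.94 and 10.18), so their lung excess was nearly the same by either measure.

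Between lung and forestomach the members were evenly divided, with 10 of 42 genes higher in lung and 10 lower. By probe 22 of 49 members were called against 33.5% of all probes, and 17 of the 33 kept in both tissues against 37.5%. Besides Cyp4b1, Cyp2a4, Cyp2b9 and Cyp2b10, lung was higher for Cyp4v3 by 2.69, Cyp4f18 by 1.95 and Cyp2j9 by 1.25 on the log2 scale. Cyp2b9 was not kept in forestomach, so its difference is a description. The Cyp2j9 call was lost with the scanner's log ratios (0.40). Forestomach was higher for Cyp4f39, the mouse counterpart of a skin ω-hydroxylase of very long fatty acids. Its forestomach levels were 3.56, 1.72, 2.96 and 1.86, against 0.09 to 0.86 in lung and -0.02 to 0.38 in liver. It was well above background on 3 of 4 vehicle lung and 1 of 4 vehicle liver arrays. The differences were 1.94 against lung and 2.35 against liver, and both were called without the glandular arrays as well (2.13 and 2.54). Cyp4f39 was not kept in liver, so its difference from liver is a description. Cyp2j8, Cyp2j6 and Cyp2j13, members of the epoxygenase subfamily, were lower in lung than in forestomach by 1.65, 1.46 and 1.12. The other Cyp2j6 probe gave 0.21, not called. Without the glandular arrays the Cyp2j6 and Cyp2j13 differences were -0.54 and -0.36 and not called, and that of Cyp2j8 was -1.05 and called. Cyp2r1 was lower in lung by 0.81 at its brighter probe, and not called at its other probe (0.15) or without the glandular arrays (-0.39).

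Cyp2c65 and Cyp2c66, known as intestinal members of their subfamily, gave the most uneven vehicle values of all. Cyp2c65 was at 0.24, 5.21, 5.00 and 0.45 in the forestomach of mice 1 to 4. Cyp2c66 was at 0.30, 6.19, 5.84 and 0.14. Mice 2 and 3, with the high values, were those whose forestomach arrays were high in glandular stomach markers. Neither was well above background on any vehicle liver array, and both were called higher in forestomach, at least 7.81-fold and 8.47-fold. Cyp2c65 was not kept in liver, so its difference is a description. Without those arrays the log2 differences were 0.35 and 0.26, not called.

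The second set of comparisons was of each BkF dose with vehicle in each tissue. As a check of exposure, Cyp1a1 in lung rose from a mean of 2.67 in D0 to 9.48 in D3, a change of 6.81 (adjusted p = 0.0034 in limma), and was called at D2 as well (6.28). In liver its changes were 2.28, 5.69 and 5.26 at D1 to D3 and none was called (adjusted p = 0.12 at D3). In forestomach they were 0.58, 2.24 and 3.24, again with none called.

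Against that background no CYP of families 2, 3 and 4 was called at any dose in any tissue, and none in the linear trend with dose. The same fits called few probes of any kind. In lung 0%, 0.0154% and 0.0338% of 32532 probes were called at D1, D2 and D3 and 0.0338% in the trend. In liver the shares of 26485 probes were 0%, 0.0491%, 0.0604% and 0%, and in forestomach each was 0% of 25155. A count of 0 among 40 to 77 members is near that background and is not by itself a result about them. At an unadjusted p under 0.05, members numbered 0, 0 and 2 of 40 in lung at D1, D2 and D3, beside 1.78%, 4.25% and 8.00% of all probes. They numbered 0, 19 and 14 of 77 in liver, beside 1.54%, 11.7% and 8.50%, and 8, 4 and 0 of 42 in forestomach, beside 12.1%, 7.61% and 2.21%. With 2 to 4 mice a group, the intervals below give the sizes these data leave room for.

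**Figure D1:**
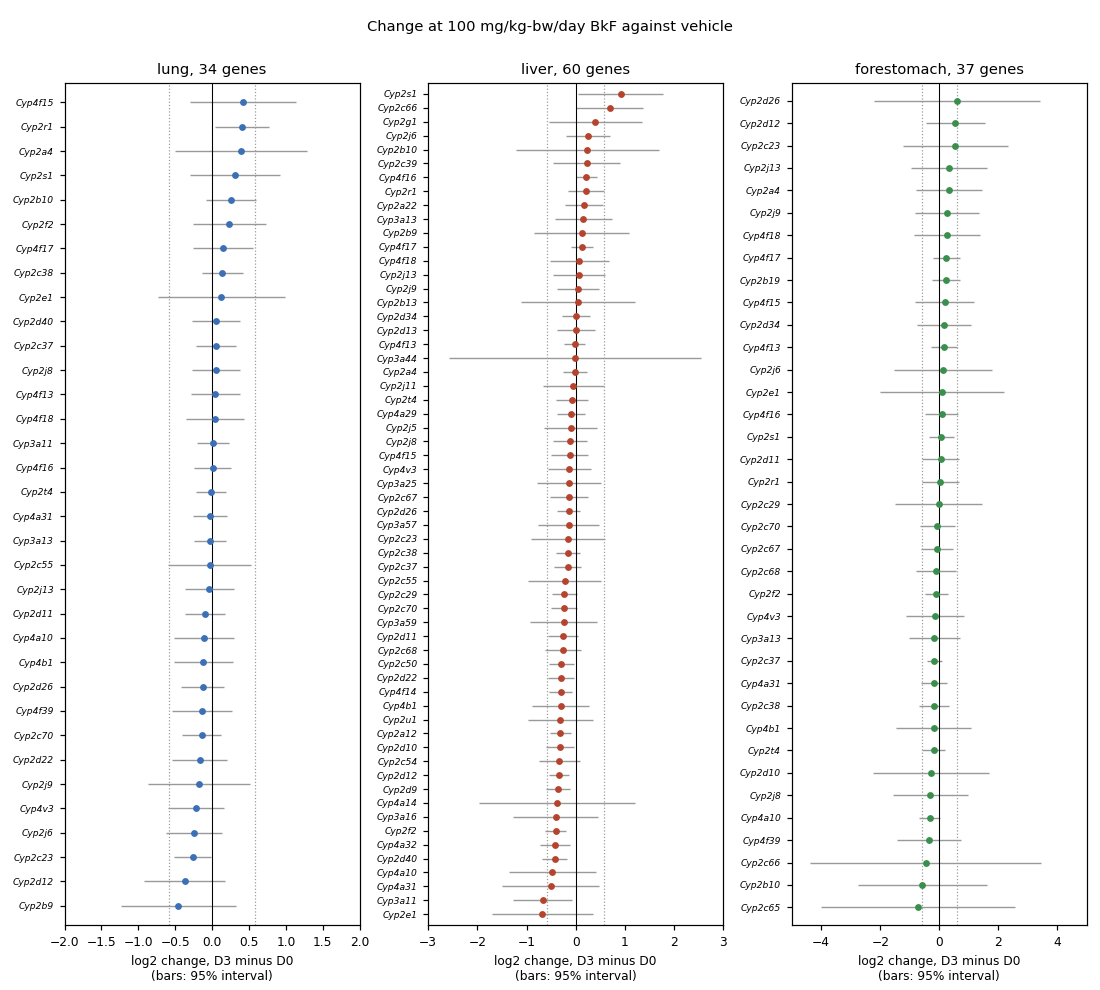
Change at 100 mg/kg-bw/day BkF against vehicle for every gene kept in lung (34), liver (60) and forestomach (37), as a log2 difference of group means (points) with 95% intervals from limma (bars). Dotted lines mark a change of 1.5-fold. The axis range differs among the 3 panels. In liver 42 of the 60 points lie left of 0, and the bars are longest in forestomach.

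The genes higher in lung than in liver, and the airway forms, were not called in lung. Cyp4b1 was at 8.21, 7.66, 8.20 and 7.86 in D3 mice 16, 17, 19 and 20, within the vehicle range but for mouse 17. Its change was -0.12, with a 95% interval of -0.52 to 0.28. Cyp2f2 was at 6.83, 6.27, 6.75 and 7.27 in the same mice, a change of 0.23 (interval -0.27 to 0.73). These 4 values lay on both sides of the vehicle range of 6.40 to 6.67. Cyp2s1 changed by 0.31 (-0.30 to 0.92), with levels of 2.96 to 4.18 in D3 that covered the vehicle range. Without D3 mouse 20 these changes were 0.066 for Cyp2f2 and 0.12 for Cyp2s1. Cyp2b10, with 2 AhR core matches upstream, was at 4.39 to 4.83 in D3 against 4.16 to 4.59 in D0, a change of 0.26 (-0.09 to 0.60, adjusted p = 0.74 in limma). The 3 measured airway club cell markers averaged 2.75 to 4.68 on vehicle lung arrays and 4.11 to 6.49 on D3 lung arrays. Their part in the values of Cyp2f2, Cyp2b10 and Cyp4b1, which club cells express, was not tested.

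The lung members nearest to a call were Cyp2r1 and Cyp2c23. Cyp2r1 was at 0.14, -0.11, -0.03 and 0.33 in D0 and at 0.29, 0.58, 0.14 and 0.94 in D3 mice 16, 17, 19 and 20. Its groups overlapped and its change was 0.40 (95% interval 0.04 to 0.77, adjusted p = 0.56 in limma), with a trend of 0.39 per 100 mg/kg-bw/day. Its other probe changed by 0.07 and was not called, and without D3 mouse 20 the change at the brighter probe was 0.25. Cyp2c23, an epoxygenase, changed by -0.26 (-0.51 to -0.01, adjusted p = 0.60 in limma). The other large lung values were 0.42 for Cyp4f15, 0.40 for Cyp2a4, -0.46 for Cyp2b9, -0.37 for Cyp2d12, -0.24 for Cyp2j6, -0.22 for Cyp4v3 and -0.18 for Cyp2j9, none of them called. The abundant liver forms Cyp2e1 and Cyp3a11, with Cyp3a13, Cyp4a10 and Cyp4f13, lay between -0.11 and 0.13 in lung. Leaving out D0 mouse 4 took Cyp4f15 to 0.13. Leaving out D3 mouse 20 took Cyp2a4 to 0.05, Cyp2b9 to -0.07 and Cyp4v3 to -0.046. Cyp2d12 ran from 0.39 to 1.25 in D0 (highest in mouse 3) and from -0.07 to 1.12 in D3 (highest in mouse 19).

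In liver 42 of the 60 genes had a value below vehicle at D3 and 18 above, with a median change of -0.14 beside -0.01 over all probes. None passed the test. Cyp2f2 came nearest. It stood at 6.65, 6.70, 6.92 and 6.93 in D3 mice 16, 17, 19 and 20, against 7.11, 7.37, 7.13 and 7.23 in D0, so every D3 liver lay below every vehicle liver. Its change was -0.41 (95% interval -0.62 to -0.20, adjusted p = 0.19 in limma), which is a smaller fold than the threshold of 1.5. Cyp2d40, Cyp2d12 and Cyp2d9, of the subfamily that holds the male testosterone 16α-hydroxylase, changed by -0.43, -0.34 and -0.36, and Cyp2a12 by -0.32 (adjusted p = 0.33 to 0.38 in limma). For Cyp2d12 and Cyp2d9 all 4 D3 livers lay below all 4 vehicle livers, and for Cyp2a12 3 of 4 did. The hepatocyte markers averaged 7.43 and 7.48 in D3 mice 16 and 17 and 7.82 and 8.01 in mice 20 and 19, against 7.90 to 8.11 in D0. Their part in these values was not tested.

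Genes regulated by drug-sensing receptors gave mixed values in liver. Cyp3a11, a PXR target, was at 9.00, 8.66, 8.18 and 8.86 in D0 and at 8.08, 7.26, 7.97 and 8.72 in D3. That is a change of -0.67 (-1.27 to -0.07, adjusted p = 0.54 in limma), and -0.42 without mouse 17. Cyp2b10 changed by 0.23, with an interval of -1.22 to 1.69 that reflects its scatter among the vehicle livers. Cyp2c29 changed by -0.23 (-0.48 to 0.02). Over the 5 CAR and PXR targets, 1 value was above and 4 below vehicle, with a median of -0.22 and 0 called. The 4 PPARα targets were all below vehicle, with a median of -0.45 and 0 called. Among them Cyp4a10 changed by -0.47, Cyp4a31 by -0.51 and Cyp4a14 by -0.38, with wide intervals and adjusted p of 0.79 to 0.93 in limma. Without D0 mouse 4 these were -0.20, -0.25 and -0.11, and without D0 mouse 3 they were -0.76, -0.80 and -0.62. Of the 8 measured arachidonic acid epoxygenases 6 were below vehicle (median -0.19), and of the 11 fatty acid and eicosanoid ω-hydroxylases 8 were (median -0.13).

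The liver genes with values above vehicle were led by Cyp2s1. It was at -2.80 to -2.37 in D0 and at -2.76, -0.27, -2.27 and -1.31 in D3 mice 16, 17, 19 and 20. The change of 0.92 (0.06 to 1.78, adjusted p = 0.56 in limma) came mostly from mouse 17, without which it was 0.46. Cyp2c66 changed by 0.69 and by 0.26 without mouse 17. That liver was the one with skeletal muscle markers at 3.59 and white fat markers at 3.36. Cyp2g1, known from the olfactory mucosa, changed by 0.40 and Cyp2j6 by 0.25 (0.031 without mouse 20), neither called. Cyp2r1, Cyp3a13, Cyp4b1, Cyp4f13 and Cyp4v3 lay between -0.31 and 0.21.

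A ratio also moves with its reference signal, which differed between dose groups at several liver genes. Of the 60 genes 41 had a brighter reference on D3 than on D0 arrays, and on the sample channel alone 34 genes were lower in D3, with a median of -0.04. The genes with an unadjusted p under 0.05 numbered 13 by ratio and 5 by sample channel, beside 2251 and 2086 of all 26485 probes. Cyp2f2 stayed at -0.36 on the sample channel (adjusted p = 0.42 in limma) and Cyp2d40 at -0.48. Cyp2d12, Cyp2d9 and Cyp2a12 came to -0.08, -0.05 and -0.02. At Cyp2d12 the D3 reference was 8.07 to 8.26, above all 4 D0 values of 7.83 to 8.03, while the sample channel overlapped.

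At Cyp2e1 the reference fell into separate sets. The liver reference signal of its brighter probe took a low value of 8.83 to 9.15 on 6 arrays and a high value of 10.32 to 10.91 on the other 7, with none between. The low arrays were those of D0 mice 1, 2 and 4, D1 mouse 8, D2 mouse 11 and D3 mouse 20. Its ratio was 9.06 to 9.38 on those arrays and 6.85 to 8.18 on the others. The D3 change was -0.68 by ratio (adjusted p = 0.73 in limma) and 0.15 by sample channel. At the other Cyp2e1 probe the liver ratios ran from 8.00 to 9.45 without such a split.

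**Figure D2:**
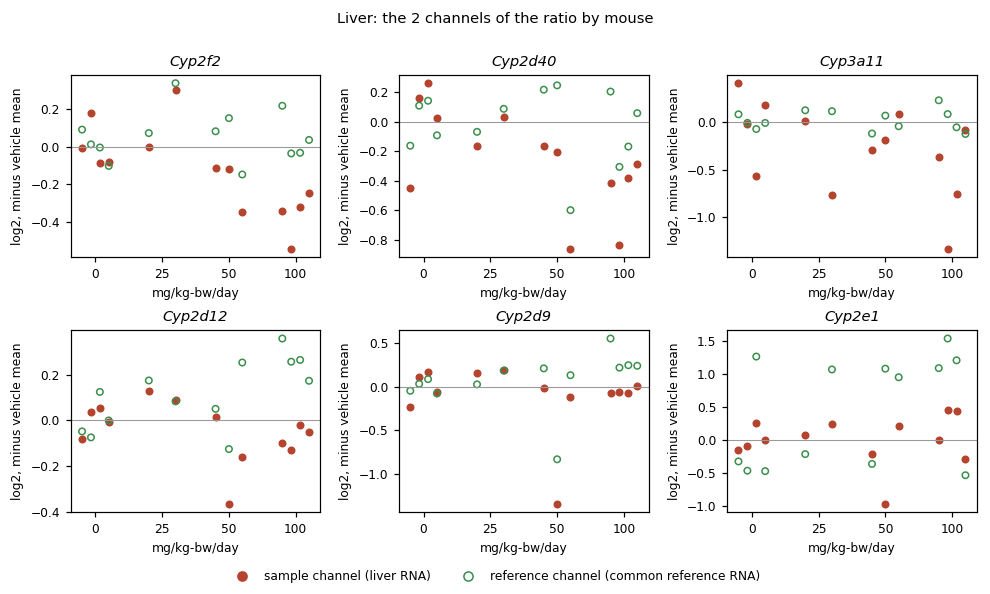
Sample channel (filled) and reference channel (open) of 6 genes in each liver, as log2 signal minus the vehicle mean (vertical axis) by BkF dose in mg/kg-bw/day, 1 pair of points per mouse. For Cyp2f2 the D3 sample points lie below 0 while the reference scatters around 0. For Cyp2d12 and Cyp2d9 the D3 reference points lie above 0, and for Cyp2e1 the reference falls into a high and a low set.

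One liver carried much of the D2 result. Mouse 12 (D2) had a level above all 12 other livers for 12 of the 60 genes and below all of them for 15. The highest or lowest liver value lay on that array at 13.8% and 14.9% of all probes. Some P450s known as female-predominant in mouse liver stood far above the others. Cyp3a44 was at 7.91 against 0.05 to 0.83 in the other livers, Cyp2b13 at 3.66 against -0.11 to 1.11 and Cyp2b9 at 2.96 against -0.09 to 1.04. Of the same list, Cyp3a16 was at 5.08 against 3.02 to 4.73 and Cyp2a4 at 7.56, within the others' range. Cyp4a14, a PPARα target, was at 4.83 against 0.16 to 1.99, and Cyp4a10, Cyp4a31, Cyp2b10 and Cyp2c39 also exceeded all others. On the low side Cyp2e1 was at 6.85 against 7.82 to 9.38, Cyp2c23 at 6.33 against 7.28 to 8.26 and Cyp2u1 at -0.02 against 0.84 to 2.06.

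The hepatocyte markers of mouse 12 averaged 7.73, within the range of the other livers. Because of this mouse the D2 changes were large and uncertain: 2.62 for Cyp3a44, 1.46 for Cyp2b13, 1.22 for Cyp2b9, 1.04 for Cyp4a14, 0.93 for Cyp2c39 and -0.88 for Cyp2e1, none called. Without it they were 0.20, 0.47, 0.42, -0.28, 0.45 and -0.29. Of the 5 measured female-biased genes all 5 had a D2 value above vehicle, with a median of 1.22 and 0 called, and at D3 2 of 5 did.

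**Figure D3:**
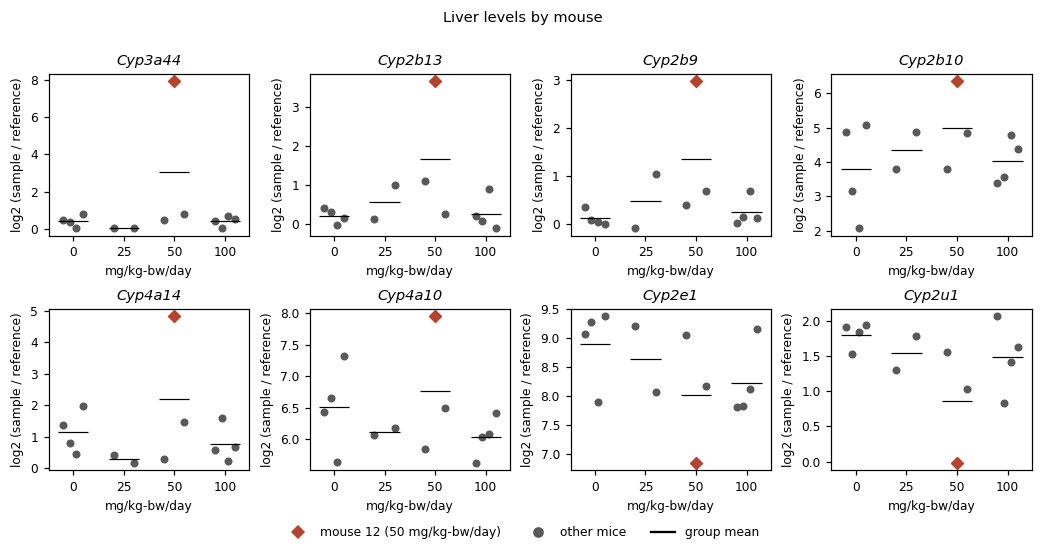
Liver levels of 8 genes as log2 of sample over reference (vertical axes) by BkF dose in mg/kg-bw/day, with 1 point per mouse, a bar at each group mean and a diamond for mouse 12 of the 50 mg/kg-bw/day group. The diamond lies beyond all other livers in each panel, above them for Cyp3a44, Cyp2b13, Cyp2b9, Cyp2b10, Cyp4a14 and Cyp4a10 and below them for Cyp2e1 and Cyp2u1.

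In forestomach some members differed between arrays high and low in the glandular stomach markers. The 9 arrays high in those markers were D0 mice 2 and 3, D1 mice 7, 8 and 9, D2 mice 12, 13 and 15 and D3 mouse 17. At 11 of the 42 member probes the ranges of the 9 and the 5 arrays did not overlap, with the 9 higher, beside 3.73% of all probes. At 0 probes were the 9 lower without overlap, beside 0.775%. A probe bright on the 9 arrays alone could pass the filter, so these counts are a description. Of the 11 probes, those of Cyp2d34, Cyp2d12 and Cyp4f15 were well above background on 6 of the 14 arrays each. Cyp2c66 ran from 3.94 to 6.44 on the 9 arrays and from 0.14 to 1.11 on the 5, and Cyp2c65 from 3.66 to 5.67 and from 0.24 to 0.98. Cyp2d26 ran from 1.62 to 5.00 against -0.46 to 0.04, Cyp2d10 from 0.54 to 3.13 against -0.24 to 0.18 and Cyp2b10 from 0.72 to 3.64 against -0.04 to 0.38. The others were Cyp2c29, Cyp2c23, Cyp2d34, Cyp2c67 (at its dimmer probe), Cyp4f15 and Cyp2d12. The hepatocyte markers moved with them, averaging 0.87 to 4.34 on the 9 arrays and 0.26 to 0.62 on the 5, and the part of either marker list in these values was not tested. Cyp2s1 did not follow the markers and stayed between 4.16 and 5.16 on all 14 arrays.

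**Figure D4:**
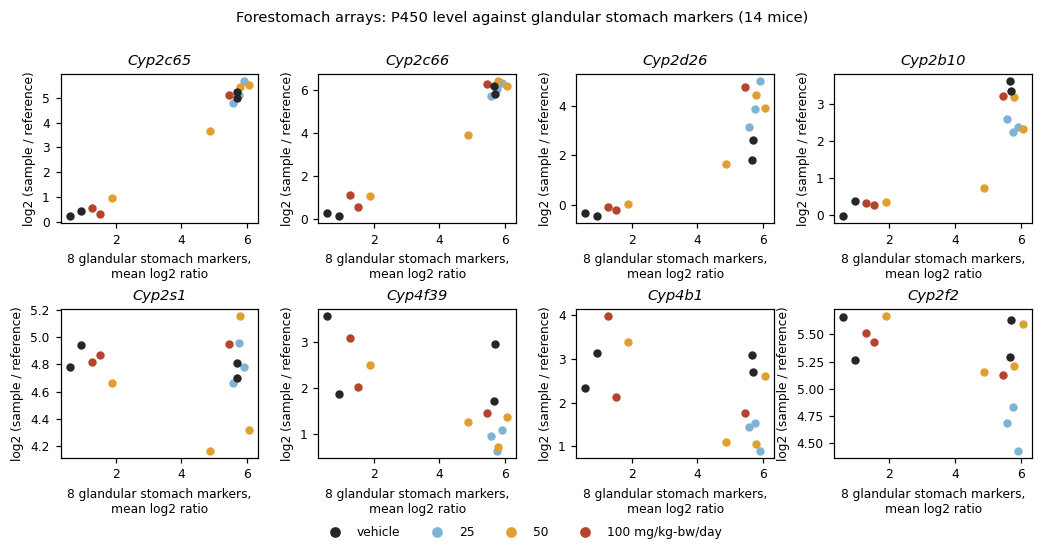
Level of 8 P450 genes (vertical axes, log2 of sample over reference) against the mean level of 8 glandular stomach markers (horizontal axes) on the 14 forestomach arrays, coloured by BkF dose in mg/kg-bw/day. Cyp2c65, Cyp2c66, Cyp2d26 and Cyp2b10 lie high only where the markers are high, and all 3 arrays of the 25 mg/kg-bw/day group are among those. Cyp2s1 is level across the panel.

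All 3 D1 arrays and 2 of the 4 D0 arrays were high in glandular stomach markers. The D1 changes are also given below from a fit with the marker level, and the part of the markers in them was not tested. Cyp4b1 was at 0.89, 1.54 and 1.44 in D1 against 2.34, 3.09, 2.71 and 3.14 in D0, without overlap, a change of -1.53 (95% interval -2.80 to -0.26, adjusted p = 0.35 in limma). It was called only when D0 and D1 were fitted without the other doses (adjusted p = 0.033). Cyp2f2 was at 4.43, 4.83 and 4.69 in D1, below all D0 values, a change of -0.81 (-1.20 to -0.43, adjusted p = 0.26 in limma). Cyp4f39 changed by -1.64, Cyp3a13 by -1.09 and Cyp2d26 by 3.105, none called. With the marker level as a covariate these 5 changes were -1.14 (Cyp4b1), -0.71 (Cyp2f2), -1.15 (Cyp4f39), -1.15 (Cyp3a13) and 1.08 (Cyp2d26), with adjusted p of 0.79 to 0.80.

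At D3 the forestomach changes were within wide limits, with 21 of 42 member probes above vehicle and 21 below. Cyp4a10, the nearest to a call, changed by -0.33, Cyp4f39 by -0.35 and Cyp2j13 by 0.33 (adjusted p = 1.00 in limma for each). Without the glandular arrays these were -0.23, -0.17 and 0.54. Among the other members with the smallest p or at the ends of the order of probes bright on all D0 and D3 arrays, Cyp2c37, Cyp2c38 and Cyp2t4 lay at -0.17 to -0.19 and Cyp2b19 and Cyp4f17 at 0.23 and 0.24. The steady Cyp2s1 of this tissue lay at 0.07 and Cyp2b10 at -0.57. Some dimmer probes, well above background on part of the arrays only, had larger values, with Cyp2d26 at 0.59, Cyp2d12 at 0.55, Cyp2c23 at 0.54 and Cyp2c65 at -0.73, and the second probe of Cyp2e1 at 1.07. In D3 Cyp2d26, Cyp2d12, Cyp2c23 and Cyp2c65 were highest in mouse 17, the D3 array high in glandular stomach markers. Cyp2e1 was highest at 4.49 in D3 mouse 16, where white fat markers averaged 5.27. Its part in the Cyp2e1 value was not tested.

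The D3 change was also compared between tissues. None of the 39 member probes kept in both lung and liver was called (0.0123% of all probes), nor any of 39 for forestomach and liver (0%) or of 33 for lung and forestomach (0.0123%). The lung to liver contrasts with the smallest p were 0.73 for Cyp3a11 (95% interval 0.15 to 1.31, adjusted p = 0.85 in limma) and 0.64 for Cyp2f2 (0.12 to 1.16, adjusted p = 0.87). Cyp2f2 had a D3 value below vehicle in liver and above vehicle in lung, and Cyp3a11 had one below vehicle in liver. In lung Cyp3a11 was well above background on 6 of the 15 arrays. Its lung levels were 0.16 to 0.29 in D3, within the vehicle range of 0.09 to 0.31.

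The members had a wider spread among mice of 1 group than the median probe. The median residual SD over members was 0.255 in lung, 0.289 in liver and 0.666 in forestomach, beside 0.203, 0.190 and 0.272 over all probes. In liver 26 of 60 genes lay above the 90th percentile of all probes, with Cyp3a44 the most variable at 1.99, a value that mouse 12 set. Cyp2c66 was the most variable in forestomach at 2.69, where its levels divided with the glandular stomach markers.

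Genes that serve the whole system, listed with the members, gave no call either. They comprise electron donors, haem synthesis enzymes, nuclear receptors and epoxide hydrolases. At D3 10 of 15 such genes were above vehicle in lung, 6 of 19 in liver and 9 of 18 in forestomach. Cyb5a, the cytochrome b5 that assists many P450s, changed by 0.53 in liver (adjusted p = 0.16 in limma) and Hnf4a, a hepatocyte transcription factor, by -0.35 (adjusted p = 0.33). Cyb5r3, the reductase of cytochrome b5, changed by -0.65 in lung (adjusted p = 0.37 in limma).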

How the data were processed

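RNA from lung, liver and forestomach was hybridised by the authors to 2-colour Agilent mouse arrays, with sample RNA in Cy5 and Universal Mouse Reference RNA in Cy3. The deposited scanner files hold the median intensity of each channel per spot, the well-above-background flag (a score of 0 or 1) and the scanner's own log10 ratio, and the authors deposited a series table of LOWESS-normalised log2 ratios. The study tested probes with MAANOVA at a false discovery rate of 0.05 and 1.5-fold. MAANOVA was not run here.

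Control spots were removed, log2(Cy5/Cy3) was taken from the median intensities without background subtraction, normalised by loess within each array, and spots of 1 probe were averaged. Each tissue was fitted with limma 3.58.1 in R 4.3.3 over its 4 dose groups, with Benjamini-Hochberg adjustment over all kept probes. The trend took dose as a linear term per 100 mg/kg-bw/day. Tissue contrasts were fitted over all 42 arrays in 12 groups. Within a tissue each sample is a separate mouse. The number of arrays limits the precision. The code was tested on simulated data.

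Probes were named through RefSeq accessions, which named 26413 of 55681 (47.4%). A gene was described by its kept probe with the brightest mean of both channels. Genes were named if called at any dose, among the 4 highest or lowest D3 changes of a tissue where well above background on all its D0 and D3 arrays, among the 5 largest tissue differences each way, nearest to a call, or in a set of 16 well-known members. Members, lists and this rule were chosen with earlier results of these data known. Additional genes are named where 1 array or the glandular markers set their values, and these were chosen after the values were seen.

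The series table correlated with the values used here at 0.9945 to 0.9989 on lung and forestomach arrays. Its liver columns did not correlate with the liver arrays and were not used. Mice gave more than 1 tissue, so mouse was tried as a block in the tissue contrasts. Other alternatives were the scanner log ratios, normexp background correction (offset 50), Aquantile normalisation, other filters, slide as a block, 2-group fits and leaving out each array. The sample channel alone and the handling of the glandular forestomach arrays were added after seeing the data.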

Additional observations from a re-analysis of the deposited data

Results flagged for a closer look

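Among the genes named, 215 groups of 4 mice were examined for a single mouse far from the rest, where the gap to its neighbour, as a share of the group's whole range, exceeded Dixon's critical value at 95%. There were 10 such groups (4.65%), and chance gives about 1 in 20. In lung these were Cyp2s1 in D0 mouse 1 (3.84, next 3.14, gap 0.927 of the range), Cyp4f15 in D0 mouse 4 (1.62, next 2.69, 0.864), Cyp4a10 in D2 mouse 12 (1.51, next 0.890, 0.866) and Cyp4f17 in D3 mouse 17 (1.096, next 0.585, 0.882). Mouse 20 of lung D3 was apart for Cyp2a4, at the top (5.66, next 4.41, 0.840), and for Cyp4a10, at the bottom (0.0866, next 0.779, 0.889). In liver, D0 mouse 1 was apart for 3 genes, with Cyp2c38 highest (8.18, next 7.90, 0.896), Cyp2c54 lowest (9.09, next 9.57, 0.942) and Cyp2d40 lowest (7.27, next 7.61, 0.833). Cyp3a25 was lowest in liver D3 mouse 17 (8.02, next 9.19, 0.927). The D2 liver group of 3 mice was too small for this test.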

How the results depend on the processing

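The count of 0 members called held in each dose comparison, trend and D3 contrast between tissues under every alternative run, except that the forestomach D1 comparison gave 1 (Cyp4b1) when fitted on D0 and D1 alone. Members called in the tissue contrasts ranged over 64 to 68 for lung and liver, 61 to 69 for forestomach and liver and 17 to 27 for lung and forestomach. With mouse as a replicate block, since the tissues paired here came from the same mice, the counts were 67, 66 and 22, and the block changed no other call. Slide was a block only within tissues.

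Scanner log ratios turned the lung D3 changes of Cyp4f15 to -0.11, Cyp2b9 to 0.55 and Cyp4b1 to 0.14, and the vehicle differences of Cyp2b10 (lung to liver) to -0.95 and Cyp4b1 (forestomach to liver, 0.02) to -0.50. The sample channel alone turned Cyp2b10 in lung D3 to -0.024, Cyp2e1 and Cyp2j6 in liver D3 to 0.15 and -0.0028, Cyp2f2 (lung to liver) to 0.30 and Cyp4b1 (forestomach to liver) to -0.27. Without the 9 glandular arrays the last was -0.065. Scanner log ratios also enlarged uncalled changes, to 2.52 for Cyp2c66 and -1.23 for Cyp4a14 in liver D3 and to -0.99 for Cyp2c23 and -1.16 for Cyp2d12 in lung D3, and the sample channel took Cyp2f2 in forestomach D1 to -1.73. The slide block turned Cyp4f39 in forestomach D3 to 0.13.

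Leaving out 1 mouse moved uncalled values across 0 within -0.28 to 1.99 for Cyp4a14 in liver D2, -0.34 to 0.66 for Cyp2b10 and -0.00016 to 0.78 for Cyp2g1 in liver D3, -0.40 to 0.17 for Cyp2j9 in lung D3, -0.79 to 0.017 for Cyp4f39 and -0.21 to 0.72 for Cyp2j13 in forestomach D3, and -0.088 to 0.18 for Cyp4b1 between forestomach and liver. Calls of Cyp2c65 and Cyp2c66 in forestomach were lost without mouse 2 (1.90 and 2.13 against liver) or mouse 3 (1.98 and 2.25). Those of Cyp2j6 (-1.08), Cyp2j13 (-0.75) and Cyp2r1 (-0.57) between lung and forestomach were lost without forestomach mouse 2. The forestomach to liver call of Cyp2b10 (-1.96) was lost in 4 of 8 such fits, its values ranging from -2.56 to -1.33, and it was -3.62 without the 9 glandular arrays. The cause was not tested. Faint signal is a further limit, since 21 of 40 lung probes and 13 of 42 forestomach probes were well above background on every array, against 65 of 77 in liver.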

Other observations

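Beside the P450s, some other genes with a known sex difference in mouse liver also set the D2 liver of mouse 12 apart. These genes were chosen after the values were seen and were not tested. Hsd3b5, a male-predominant steroid dehydrogenase, was at 0.21 in that liver against 6.13 to 6.81 in the 12 others, and Elovl3, a male-predominant fatty acid elongase, at 0.09 against 4.09 to 5.73. Sult2a1, a female-predominant sulfotransferase, was at 5.42 against -0.18 to 0.29. The Y-linked genes Ddx3y and Eif2s3y were at 1.85 and 2.06 in that liver, within the ranges of 0.01 to 2.06 and 1.87 to 2.61 in the others. In D3 mouse 16, 19 of the 60 P450 genes had their lowest liver value and 2 their highest, beside 5.64% and 5.12% of all probes.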
